A study of Mus musculus with 12 samples.

Results

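Tight junction transcripts were examined in mouse epidermis with and without epidermal Pparg. The genes were chosen by name: 7 claudins (Cldn1, Cldn3, Cldn4, Cldn7, Cldn8, Cldn12 and Cldn23), occludin (Ocln) and the scaffold Tjp1, 9 genes in all. The deposited count table lists 14533 genes, each with more than 0.5 CPM (read counts scaled for library size) in at least 6 mice, and holds 8 of the 9. Cldn7 was not analysed here.

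Tight junctions seal the space between neighbouring epithelial cells, and in the epidermis they form in the granular layer, beneath the cornified layer. Claudins and occludin span the membrane, and claudins of facing cells bind each other to form the strands that limit the passage of ions, water and solutes. Scaffold proteins such as zonula occludens-1, the product of Tjp1, tie the strands to the actin cytoskeleton. Loss of Cldn1 in mice is known to cause lethal water loss through the skin.

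Dorsal skin of untreated C57BL/6 mice aged 8 to 13 weeks was frozen and the epidermis scraped off, with 6 wildtype (WT) and 6 Pparg-/-epi mice and 1 mRNA library per mouse. All 12 mice carried Pparg (flox/flox) alleles. The Pparg-/-epi mice also carried Cre driven by the Cytokeratin14 promoter, which is active in basal keratinocytes and in the hair follicle and sebaceous gland cells that arise from them, whereas the WT mice were Cre-negative siblings. The WT group held 3 females and 3 males, and the Pparg-/-epi group 4 females and 2 males. RNA integrity numbers (RIN) ranged from 5.9 to 8.6 in WT and from 5.7 to 8.6 in Pparg-/-epi libraries. The mouse names carry a leading number whose meaning is not given in the sources used here: 4 of the WT mice share the number 226, and only the number 222 occurs in both groups.

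Total counts ranged from 10120840 to 18851255 per library. Counts of Pparg over the whole gene did not separate the groups, at 5 to 269 reads (WT) and 16 to 107 reads (Pparg-/-epi), with a log2 fold change of -0.10 (SE 0.71, adjusted p = 0.949). That sum cannot check a deletion of part of the gene in keratinocytes alone. Markers of basal and suprabasal keratinocytes were abundant in all libraries (summed CPM of 7307 or more and of 9411 or more), but Krt2 was low (0.780 to 10.3 CPM) and Flg was not in the table. The scrapings held other tissue in unequal amounts: WT replicate 2 had the highest summed CPM among WT mice for sebaceous gland, growing hair follicle, endothelium, leukocyte and adipocyte markers, WT replicate 1 for fibroblast markers (34493) and WT replicate 5 for skeletal muscle markers (9059). Pparg-/-epi replicate 8 had the highest growing hair follicle sum of all mice (4487). Fewer cells of a type and less RNA per cell cannot be told apart in such bulk libraries.

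The start regions of 3 of the genes are shown because Cldn3 and Cldn4 are close neighbours on chromosome 5 that differed in response, and because Ocln had the narrowest Pparg-/-epi values among the genes with an adjusted p under 0.05. Each run is the 250 bases before the RefSeq transcription start (GRCm38.p6, the build of mm10), 5′ to 3′ on the gene's strand. Capitals mark AGGTCA, the core hexamer of nuclear receptor sites, and CACCTG, an E-box that Snail factors can bind, on either strand (TGACCT and CAGGTG on the other). The Cldn3 run is chr5:134985964-134986213 (+), the Cldn4 run chr5:134946935-134947184 (-) and the Ocln run chr13:100552499-100552748 (-), and each ends at the base before the gene's first base as listed in the count table.
Cldn3: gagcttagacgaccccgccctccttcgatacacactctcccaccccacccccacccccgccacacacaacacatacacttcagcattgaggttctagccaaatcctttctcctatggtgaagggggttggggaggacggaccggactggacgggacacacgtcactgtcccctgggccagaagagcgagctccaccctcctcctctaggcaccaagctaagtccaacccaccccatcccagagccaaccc
Cldn4: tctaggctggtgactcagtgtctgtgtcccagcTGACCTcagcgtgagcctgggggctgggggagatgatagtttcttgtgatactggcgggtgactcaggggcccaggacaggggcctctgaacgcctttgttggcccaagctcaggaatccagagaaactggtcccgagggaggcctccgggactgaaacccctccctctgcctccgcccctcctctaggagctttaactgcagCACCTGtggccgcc
Ocln: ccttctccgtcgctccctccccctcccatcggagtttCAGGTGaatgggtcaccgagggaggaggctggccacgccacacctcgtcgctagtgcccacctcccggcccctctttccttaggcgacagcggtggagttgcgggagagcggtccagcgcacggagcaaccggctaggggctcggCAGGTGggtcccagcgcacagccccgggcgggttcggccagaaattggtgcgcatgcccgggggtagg

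The Cldn3 run held none of the motifs searched. The Cldn4 run held AGGTCA at 217 bases and CACCTG at 14 bases before the start, and the Ocln run held CACCTG at 213 and at 68 bases before it. RefSeq lists another start for Ocln further upstream, whose run, not shown, held AGGTCA at 245 bases before that start and no CACCTG. Of 32851 RefSeq promoters of the same length, 14.0% held AGGTCA and 17.2% held CACCTG. The direct repeat of that hexamer with 1 base between (DR1), the element of PPAR and RXR dimers, was found in 0.0335% of them, the palindromic grainyhead site in 0.116% and TATAAA in 12.4%, and none of these was found in the promoters of the 6 listed genes of the table that had a RefSeq entry. Promoters of Cldn8 and Cldn23 were not read. These are descriptions of letters only. GC content was 60.8% for Cldn3, 62.0% for Cldn4 and 69.2% for Ocln, above the median of 52.4% over all promoters.

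Counts in Pparg-/-epi mice were compared with WT in a fit over all 14533 genes, with the Benjamini-Hochberg adjustment over all of them (edgeR quasi-likelihood test). A gene was called altered at a log2 fold change of at least 0.6 in size and an adjusted p under 0.05. Of the 8 junction genes, 2 were altered, Cldn3 and Cldn23, and both fell. Among all genes, 10.3% were altered, 5.08% as falls and 5.19% as rises. The adjusted p was under 0.05 at any size for 3 of the 8, the third being Ocln, against 15.4% of all genes. For Cldn3 and Ocln the 2 groups did not overlap, which held for 7.9% of all genes. The median log2 fold change was -0.17 over the 8 genes and -0.01 over all genes, with 6 negative and 2 positive values. The count of 2 altered genes in 8 is small, and the list as a whole was not tested.

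**Figure D1:**
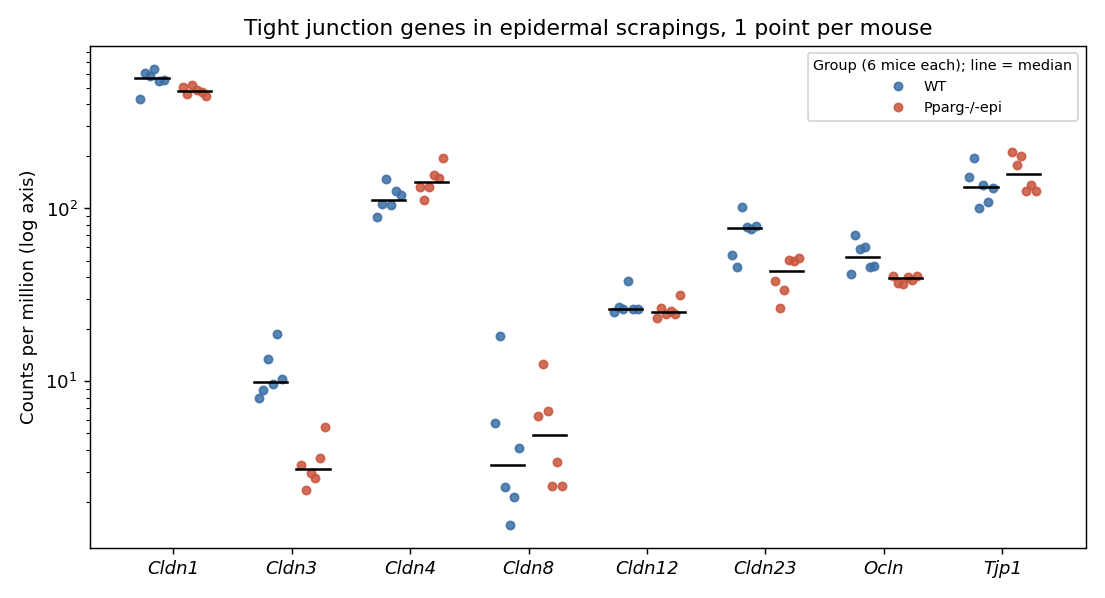
TMM-scaled CPM on a log axis for the 8 junction genes, with 1 point per mouse, 6 WT in blue and 6 Pparg-/-epi in red, and black lines at the medians. Cldn3 and Ocln are the genes whose groups do not overlap, Cldn23 overlaps through WT replicate 2, and Cldn8 spans the widest range within WT.

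Cldn3 encodes a claudin that seals the space between cells. It is a gene of 1 exon at chr5:134986214-134987476 (mm10, plus strand). WT libraries had a lowest value of 8.05, a median of 9.94 and a highest value of 18.7 CPM, and Pparg-/-epi libraries 2.36, 3.12 and 5.41 CPM. Every WT mouse was above every Pparg-/-epi mouse, with WT replicate 5 the highest and Pparg-/-epi replicate 8 the lowest. The underlying counts were 126 to 237 and 33 to 63 reads. Cldn3 fell by 70.5% (log2 fold change = -1.76, SE 0.26, 95% interval -2.32 to -1.20, adjusted p = 0.000993), and 132 of the 739 genes that were altered and lower fell further.

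The fall in Cldn3 was present beside differences in tissue content, RIN and mouse origin, whose part in it was not tested beyond the fits named here. Summed CPM of 7 sebaceous gland markers, enzymes of sebum lipid synthesis, ranged from 33.5 to 1036 in WT and from 11.1 to 25.9 in Pparg-/-epi, also without overlap, and 6 of the 7 were altered (Mc5r was not in the table). Fa2h, Awat1 and Scd3 were at 0 in at least 1 Pparg-/-epi library. WT replicates 3 and 6, the WT mice with the lowest sums of these markers (33.5 and 42.6), had 13.4 and 10.3 CPM of Cldn3. In the pair of libraries with the name number 222, Cldn3 was 8.97 CPM in WT replicate 2 and 2.74 CPM in Pparg-/-epi replicate 10. Without the 4 WT mice of number 226 the log2 fold change was -1.31 and the adjusted p 0.0535, with 2 WT mice left. Cldn3 stayed altered in the other 24 of 25 alternative fits. The WT libraries with a RIN of 5.9 to 6.2 had 10.3 to 18.7 CPM, against 8.05 to 9.61 CPM at a RIN of 7.1 to 8.6. In Pparg-/-epi, replicates 11 and 12 (RIN 5.7 and 7.1) were the highest, at 3.62 and 5.41 CPM. With RIN as a covariate the log2 fold change was -1.56 (adjusted p = 0.00111). Among libraries with a RIN of 7 or more it was -1.40 (adjusted p = 0.0354).

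Cldn3 lies 39279 bases from Cldn4. The other listed genes within 100 kb, 6 in number, were Wbscr27, Abhd11, Stx1a, Wbscr22, Dnajc30 and Vps37d, and none of them was altered by the quasi-likelihood test, the likelihood ratio test or DESeq2, with 1, Wbscr27, at an unadjusted p under 0.05. Their log2 fold changes ranged from -0.35 for Abhd11 (adjusted p = 0.323) to 0.43 for Wbscr27 (adjusted p = 0.155).

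Cldn23 encodes a less studied claudin, from 1 exon at chr8:35824709-35826559 (minus strand). Its WT values had a minimum of 46, a median of 77.3 and a maximum of 102 CPM, against 26.4, 43.7 and 51.9 CPM in Pparg-/-epi. WT replicates 1 and 2 were low (53.9 and 46 CPM) and replicate 2 lay below Pparg-/-epi replicates 10 to 12 (49.6 to 51.9 CPM), so the groups overlapped. Cldn23 fell by 42.6% (log2 fold change = -0.80, SE 0.21, 95% interval -1.25 to -0.35, adjusted p = 0.0221).

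This call was less firm than that of Cldn3. Within each group the mice with the lowest Cldn23 were also those with the highest summed CPM of endothelial markers: 56.2 and 101 in WT replicates 1 and 2 against 4.91 to 28.0 in the other WT mice, and 117 to 149 in Pparg-/-epi replicates 7 to 9 against 23.9 to 50.6 in the others. All 5 endothelial markers were in the table and above 0 in every library. RIN was 7.4 and 8.6 in WT replicates 1 and 2 and 5.9 to 7.1 in the other WT mice, and 7.7 to 8.6 in Pparg-/-epi replicates 7 to 9 and 5.7 to 7.7 in the others. The lowest mouse of each group, WT replicate 2 and Pparg-/-epi replicate 8, also had its group's lowest sum of suprabasal and granular markers. These sums were 9411 against 23502 or more in other WT mice, and 17797 against 24521 or more in other Pparg-/-epi mice. WT replicate 1 and Pparg-/-epi replicate 7, also low in Cldn23, had sums of 29587 and 30649. The part of endothelium and of the suprabasal and granular layer in this result was not tested. With RIN as a covariate the log2 fold change was -0.58 (adjusted p = 0.0252), which is under the size limit. Among libraries with a RIN of 7 or more it was -0.56 (adjusted p = 0.276), in female mice alone -0.89 (adjusted p = 0.0988), and without the 4 WT mice of number 226 it was -0.25 (adjusted p = 0.623). In the libraries of number 222, WT replicate 2 had 46 CPM and Pparg-/-epi replicate 10 had 50.5 CPM. The number shared by the 4 WT mice and the genotype cannot be told apart, since no Pparg-/-epi mouse carries it.

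Ocln encodes occludin, a 4-pass membrane protein of the strands, from 9 exons at chr13:100497367-100552498 (minus strand). WT mice had 41.5, 52.2 and 70.4 CPM as minimum, median and maximum, and Pparg-/-epi mice 36.5, 39.4 and 40.7 CPM. The Pparg-/-epi values lay close together and just below the lowest WT value, that of WT replicate 1. Ocln fell by 27.6% (log2 fold change = -0.47, SE 0.12, 95% interval -0.73 to -0.20, adjusted p = 0.0218), which is below the size set for an altered gene. The SD of log2 CPM was 0.28 in WT and 0.07 in Pparg-/-epi, beside medians over all genes of 0.28 and 0.24. The direction held in all 25 alternatives and the adjusted p stayed under 0.05 in 20 of them. It was 0.0532 without WT replicate 4, 0.0502 in female mice alone, 0.153 without the 4 WT mice of number 226, 0.105 among libraries with a RIN of 7 or more and 0.0614 with 2 blocks of mouse name numbers. In the libraries of number 222, WT replicate 2 had 70.4 CPM and Pparg-/-epi replicate 10 had 40.3 CPM. WT replicate 2 was the highest of all mice for Ocln and had the highest WT sebaceous gland, hair follicle and endothelium sums. The part of these tissues was not tested. Without that library the log2 fold change was -0.39 (adjusted p = 0.0188), the smallest fall among the fits that left out 1 mouse.

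**Figure D2:**
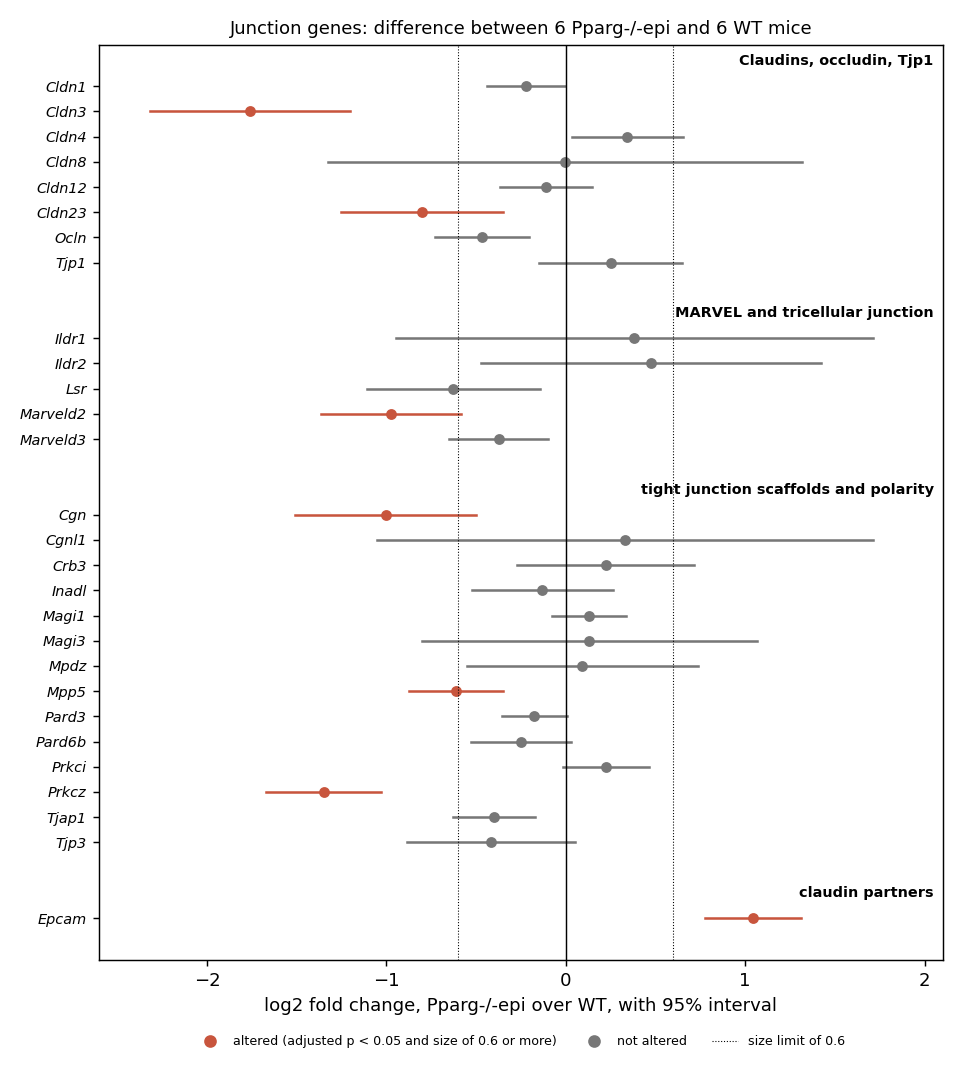
Points give the log2 fold change of Pparg-/-epi over WT (x axis) with its 95% interval for the 8 junction genes and genes from 3 lists of related genes, red where altered and grey where not, and dotted lines mark the size limit of 0.6. Cldn3 lies at -1.76, Prkcz at -1.35 and Cgn at -1.0, while Epcam lies at 1.04 on the other side.

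Cldn1, the most abundant claudin here and the one needed for the water barrier, is read from 4 exons at chr16:26356646-26371839 (minus strand). Its values were 430, 569 and 643 CPM (minimum, median, maximum) in WT and 449, 478 and 515 CPM in Pparg-/-epi. WT replicate 1 was the lowest of all mice, and the other WT mice lay above the Pparg-/-epi range. The difference did not pass the test (log2 fold change = -0.22, SE 0.10, 95% interval -0.44 to -0.00, adjusted p = 0.160). Of the 25 alternatives, 2 had an adjusted p under 0.05, each of them without WT replicate 1, and the highest adjusted p was 0.771. Leaving out WT replicate 1 alone gave -0.30 (adjusted p = 0.0320). That library had the highest fibroblast marker sum, and the part of that tissue was not tested.

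Cldn4, another sealing claudin and the neighbour of Cldn3, lies in 1 exon at chr5:134945124-134946934 (minus strand). It had 89.7, 113 and 148 CPM in WT and 112, 142 and 196 CPM in Pparg-/-epi. The Pparg-/-epi values were shifted upward but overlapped, with WT replicate 3 above 3 of the Pparg-/-epi mice. The log2 fold change was 0.34 (SE 0.14, 95% interval 0.03 to 0.65, adjusted p = 0.130) and did not pass the test. Its adjusted p was under 0.05 in only 2 of the 25 alternatives and reached 0.286 among the others. Those 2 were the fit with RIN as a covariate (log2 fold change 0.45, adjusted p = 0.0343) and that with 2 blocks of mouse name numbers (0.48, adjusted p = 0.0166).

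Set against each other within a mouse, Cldn4 and Cldn3 give a ratio that does not depend on library scaling. The ratio of their RPKM (read counts scaled for library size and gene length) was 4.71 to 8.27 in WT (7.36 ± 1.32, SD, n = 6) and 25.3 to 39.5 in Pparg-/-epi (31.1 ± 4.91, SD, n = 6). The ratio was chosen after both genes' values were seen and is given without a test.

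Tjp1 encodes the scaffold zonula occludens-1, from 28 exons at chr7:65296165-65371244 (minus strand). WT mice had 100, 134 and 196 CPM (minimum, median, maximum) and Pparg-/-epi mice 126, 158 and 213 CPM. The Pparg-/-epi mice fell into high values in replicates 7 to 9 (179 to 213 CPM) and low ones in replicates 10 to 12 (126 to 137 CPM), and WT replicates 1 and 2 (153 and 196 CPM) were the highest of their group. These 5 highest mice were also the 5 with the highest summed endothelial markers, and the part of that tissue was not tested. Their RINs were 7.4 and 8.6 in WT replicates 1 and 2 and 7.7 to 8.6 in Pparg-/-epi replicates 7 to 9. Pparg-/-epi replicate 10, among the low ones, also had a RIN of 7.7. The genotype difference did not pass the test (log2 fold change = 0.25, SE 0.18, 95% interval -0.15 to 0.65, adjusted p = 0.407). With RIN as a covariate the log2 fold change was 0.096 (adjusted p = 0.659).

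Cldn12, a claudin that lacks the usual scaffold-binding tail, is read from 5 exons at chr5:5505015-5514976 (minus strand). It ranged from 25.3 to 37.9 CPM in WT, with a median of 26.1, and from 23.1 to 31.6 CPM in Pparg-/-epi, with a median of 25. The groups overlapped, and WT replicate 4 stood alone at the top. Its log2 fold change was -0.11 (SE 0.12, 95% interval -0.37 to 0.15, adjusted p = 0.586).

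Cldn8, a claudin best known from the distal nephron of the kidney, lies in 1 exon at chr16:88560826-88563183 (minus strand). It was the least abundant member and the most variable, from 1.48 to 18.3 CPM in WT (median 3.27) and from 2.49 to 12.7 CPM in Pparg-/-epi (median 4.86), on 22 to 345 and 29 to 209 reads. The highest mouse in each group, WT replicate 2 and Pparg-/-epi replicate 8, also had the highest summed hair follicle markers in that group (2077 and 4487 CPM). All 7 of these markers were in the table, with Krt25 at 0 in a WT library. The same mice also had their group's highest sebaceous gland, endothelium and adipocyte sums. WT replicate 1, with the lowest hair follicle sum of all mice (17.2), had 5.75 CPM of Cldn8. WT replicate 6, with a sum of 515, had 4.09 CPM. The part of these tissues was not tested. A genotype difference was not detectable at this spread (log2 fold change = -0.01, SE 0.61, 95% interval -1.33 to 1.32, adjusted p = 0.997).

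Levels of different genes can be compared only per length, so they were set side by side as RPKM. In WT the order of mean RPKM was Cldn1 173, Cldn4 63.9, Cldn23 39.2, Tjp1 19.3, Ocln 16.8, Cldn3 9.11, Cldn12 6.89 and Cldn8 2.42. Cldn1 lay above Cldn4, and Cldn4 above Cldn23, in 6 of 6 WT mice. Each later step held in 5 of 6 mice, so those neighbours were not fully separated. In Pparg-/-epi mice the order was Cldn1 148, Cldn4 81.1, Tjp1 23.0, Cldn23 22.5, Ocln 12.2, Cldn12 6.38, Cldn3 2.69 and Cldn8 2.42. There Cldn12 lay above Cldn3 in 6 of 6 mice, whereas Cldn3 lay above Cldn12 in 5 of 6 WT mice. Tjp1 and Cldn23, and Cldn3 and Cldn8, were each in that order in 3 of 6 mice and could not be ranked.

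The makeup of the claudins followed from these levels. Summed over the 6 claudins, RPKM was 295 ± 37.1 in WT and 264 ± 18.3 in Pparg-/-epi (SD, n = 6 each). Cldn1 made up 58.8% of the sum in WT and 56.6% in Pparg-/-epi. The share of Cldn4 was 21.7% ± 2.17 in WT and 30.6% ± 3.95 in Pparg-/-epi (SD, n = 6 each), while that of Cldn23 was 13.2% and 8.47% and that of Cldn3 3.08% and 1.01%. A share rises when another falls, so these values are not separate results.

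**Figure D3:**
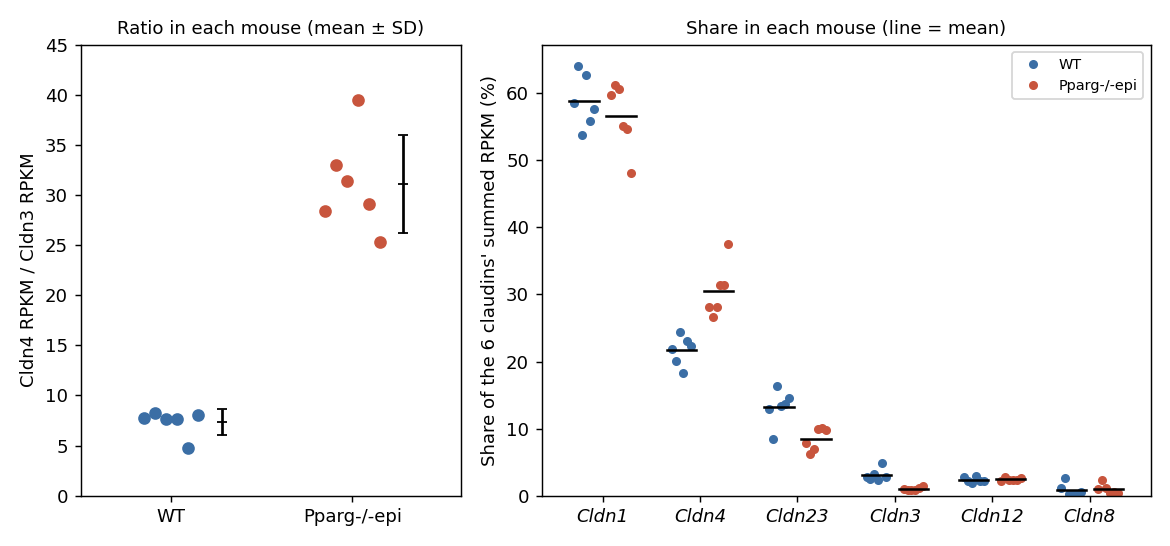
The left panel plots the ratio of Cldn4 to Cldn3 RPKM in each mouse with mean ± SD, with WT points from 4.71 to 8.27 and Pparg-/-epi points from 25.3 to 39.5. The right panel plots each claudin's share (%) of the 6 claudins' summed RPKM in each mouse with a line at the mean, where Cldn4 goes from 21.7% to 30.6% and Cldn1 stays the largest share in both groups.

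Genes that work with or regulate claudins, and further claudins, were taken from lists, 51 in the table outside the 8 genes above. Of these, 2 were altered and higher, 4 altered and lower, and 45 not altered, and 3 had groups that did not overlap. These 6 altered and 3 non-overlapping genes of 51 are near the shares over all genes (10.3% and 7.9%). The median log2 fold change over the 51 was 0.09.

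Among the scaffolds and polarity proteins, 15 in the table, 3 were altered and all 3 fell, against 10.3% altered and 5.08% altered as falls over all genes. The list is small and was not tested as a whole. Prkcz, an atypical protein kinase C of the PAR polarity complex, went from 16.8 ± 3.09 to 6.59 ± 0.635 CPM (SD, n = 6 each) without overlap (log2 fold change -1.35, SE 0.15, adjusted p = 0.000206). Cgn, cingulin, a plaque protein that binds zonula occludens proteins and the most abundant of this list, went from 376 ± 106 to 187 ± 53.3 CPM, with overlap (log2 fold change -1.0, SE 0.23, adjusted p = 0.0125). Mpp5, also called Pals1, of the Crumbs polarity complex, went from 66.6 ± 11.9 to 43.6 ± 4.59 CPM without overlap, just past the size limit (log2 fold change -0.61, SE 0.12, adjusted p = 0.00521). Prkcz was altered in 25 of 25 alternatives, Cgn in 22 and Mpp5 in 17. Mpp5 went under the size limit at -0.60 without WT replicate 2, -0.57 without WT replicate 3, -0.54 without WT replicate 4 and -0.58 without Pparg-/-epi replicate 11.

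Of the 5 MARVEL and tricellular genes beside occludin, 1 was altered. Marveld2, tricellulin, which seals the points where 3 cells meet, went from 54.8 ± 15.0 to 27.9 ± 4.14 CPM (SD, n = 6 each; log2 fold change -0.97, SE 0.18, adjusted p = 0.00390). The groups overlapped through WT replicate 2, at 32.2 CPM, below the highest Pparg-/-epi mouse at 33.4 CPM. Lsr, which recruits tricellulin and was the most abundant of the list, had a log2 fold change of -0.63 (SE 0.22, adjusted p = 0.0777) and was not altered, but it was altered by the likelihood ratio test and by DESeq2. Marveld2 and Cgn both missed the test in female mice alone (adjusted p = 0.0566 and 0.0774), without the 4 WT mice of number 226 (0.265 and 0.448), and among libraries with a RIN of 7 or more (0.120 and 0.193). As for Cldn23, Cgn, Marveld2 and Lsr were lowest within their group in the mice with the highest endothelial marker sums. Cgn was at 300 and 213 CPM in WT replicates 1 and 2 against 353 to 479 CPM in the other WT mice, and at 103 to 167 CPM in Pparg-/-epi replicates 7 to 9 against 217 to 249 CPM in the others. Marveld2 was at 43.1 and 32.2 CPM against 57.3 to 74.4 CPM, and at 22.2 to 26.4 CPM against 29.4 to 33.4 CPM. Lsr was at 208 and 148 CPM against 255 to 410 CPM, and at 124 to 152 CPM against 198 to 223 CPM. Prkcz was lowest in these mice within WT (15.7 and 11.4 CPM against 17.4 to 20.5 CPM). Within Pparg-/-epi it was not (6.42 to 7.70 CPM against 5.75 to 6.74 CPM). WT replicate 2 and Pparg-/-epi replicate 8, the lowest of their groups for Cgn and Marveld2, also had their groups' lowest suprabasal and granular marker sums. As given for Cldn23, WT replicate 1 and Pparg-/-epi replicate 7 had higher sums. The part of endothelium, of that layer and of RIN in these results was not tested beyond the fits named.

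Epcam, a membrane protein that binds claudins and steadies them, was one of 2 claudin partners. It rose from 190 ± 40.5 to 391 ± 22.9 CPM (SD, n = 6 each) without overlap, and WT replicate 2, at 268 CPM, was the highest WT mouse (log2 fold change 1.04, SE 0.12, adjusted p = 0.000300). It was altered in 25 of 25 alternatives.

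In the adherens junction list, 1 of 10 genes was altered. Cdh3, P-cadherin, rose from 48.8 ± 10.4 to 78.6 ± 13.7 CPM (SD, n = 6 each; log2 fold change 0.69, SE 0.16, adjusted p = 0.0122). It was altered in 21 of 25 alternatives and not without WT replicate 3 (0.59), in female mice alone (adjusted p = 0.0658), without the 4 WT mice of number 226 (adjusted p = 0.132) or with 2 blocks of mouse name numbers (0.58). Cdh1, E-cadherin, the most abundant of the list, was at 838 ± 112 and 874 ± 66.1 CPM (SD, n = 6 each; log2 fold change 0.06, SE 0.11, adjusted p = 0.768).

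The other lists held no altered gene in the quasi-likelihood test of edgeR. They were the JAM family (0 of 5, most abundant Cxadr at a log2 fold change of 0.42, adjusted p = 0.0740), regulators of claudin transcription such as the grainyhead factors and Klf4 (0 of 7, most abundant Klf4 at -0.04, adjusted p = 0.951) and the matriptase pathway (0 of 4, most abundant Spint2 at -0.20, adjusted p = 0.421). At an unadjusted p under 0.05 there were 2, 1 and 0 genes in these lists. The likelihood ratio test altered none of them, and DESeq2 altered 1, Esam of the JAM family, which is also a marker of endothelium. Further claudins in the table were low. Cldn5, of endothelium, was at 3.05 ± 2.78 and 4.63 ± 1.96 CPM, Cldn10 at 5.35 ± 8.01 and 2.94 ± 2.37 CPM, and Cldn15 at 0.431 ± 0.390 and 0.905 ± 0.605 CPM (WT and Pparg-/-epi, SD, n = 6 each), and none passed the test (adjusted p = 0.525, 0.528 and 0.328), at an unadjusted p under 0.05 or by the other 2 tools.

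Genes whose levels followed the altered claudins most closely over the 12 mice were found by Pearson's r of log2(CPM + 1), as a description without a test. Both groups are pooled, so their difference is part of each r. For Cldn3 these were Zmat1 (r = 0.96, Spearman's rho = 0.96), Fam131a (r = 0.94, rho = 0.84) and Gem (r = 0.94, rho = 0.90). For Cldn23 they were Laptm4b (r = 0.99, rho = 0.99), N4bp3 (r = 0.98, rho = 0.92) and Cyp2j6 (r = 0.98, rho = 0.99). All 6 were altered and lower in Pparg-/-epi mice. Without the 2 mice farthest from the median of the claudin, r ranged from 0.95 to 0.99.

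The genotype difference of the 8 genes was also compared between male and female mice. None had an adjusted p under 0.05 for the interaction of genotype with sex in edgeR's quasi-likelihood test, and the lowest unadjusted p was 0.0794, for Cldn12. Over all genes 0 passed, with 741 at an unadjusted p under 0.05, and 4 passed by the likelihood ratio test.

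**Figure D4:**
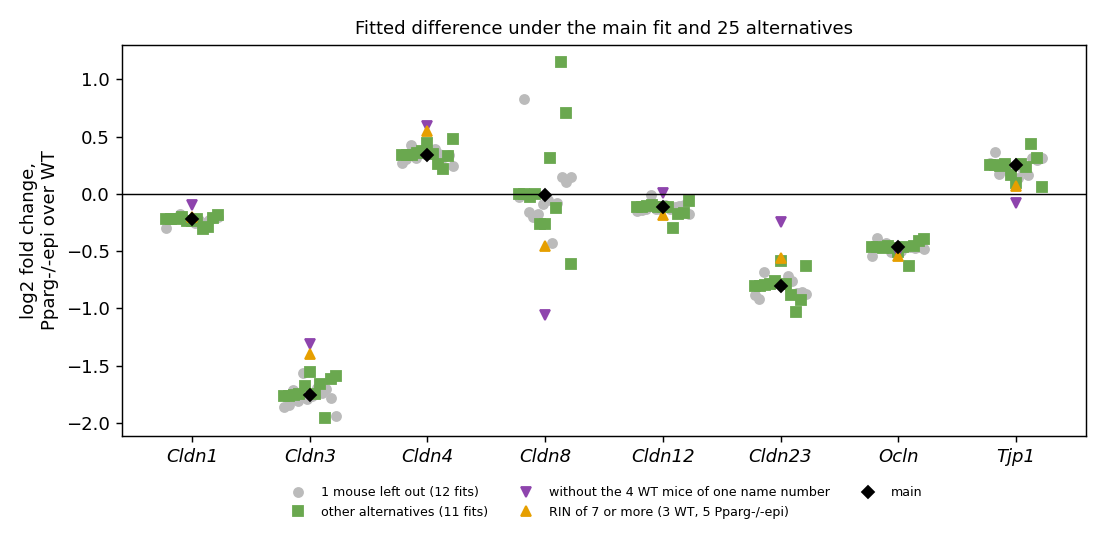
The log2 fold change of each of the 8 junction genes (y axis) is shown for the main fit (black diamond) and 25 alternatives, which leave out 1 mouse or change the test, scaling, filter, covariates or mice used. Cldn3, Cldn23, Ocln and Cldn1 stay below 0 in every fit and Cldn4 above it. Without the 4 WT mice of one name number, Cldn23 is at -0.25 and Cldn1 at -0.09, each gene's own value nearest 0. Cldn8 ranges from -1.06 to 1.15.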

How the data were processed

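Per the labels and the study's methods, the authors aligned mRNA reads from 12 libraries to mm10 with STAR 2.5.2b, removed multi-mapped reads and counted reads per gene with featureCounts of Subread 1.5.1. The deposited values are raw counts with gene lengths, and 2800 blank rows were dropped. The columns of replicates 11 and 12 were matched through the study's run sheet. Counts were scaled by TMM in edgeR 4.0.16 (R 4.3.3) and tested with its quasi-likelihood test, genotype as the only term, over all 14533 genes. The likelihood ratio test, which the study used, DESeq2 1.42.0 and the settings named in the closing section were alternatives. Levels between genes are RPKM from the length column.

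No exon of the 8 genes overlapped another listed gene, and 0% of their 75-base stretches occurred in another gene's transcripts. The genes named are all members, the altered and most abundant genes of each list, other claudins, Pparg and the 3 genes most alike each altered member. Some genes under this rule are not reported here. The members and lists were chosen with earlier results of these data known.
P-values set each difference against the spread between these mice, with the 4 WT mice of number 226 counted as separate mice. Figures used matplotlib 3.10.9 in Python 3.11.15.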

Additional observations from a re-analysis of the deposited data

Results flagged for a closer look

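Cldn12 in WT replicate 4 was at 37.9 CPM, apart from the other WT mice at 25.3 to 26.9 CPM. The gap was 0.85 of the group's whole range, above the critical value of 0.625 for 6 samples. It was the only one of 16 groups (8 genes in 2 groups) to stand out, and chance gives about 1 in 20. Without that mouse the log2 fold change of Cldn12 was -0.0069.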

How the results depend on the processing

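The 25 alternatives gave 301 values, of which 270 kept their direction and side of the threshold or stayed within their spread. Among the 12 fits that left out 1 mouse, altered members stayed at 2, members with an adjusted p under 0.05 numbered 2 to 4, altered genes 1116 to 2249 (the highest without WT replicate 2), and altered genes of the related lists 4 to 8 (4 without WT replicate 3 and 8 without WT replicate 2). Cldn8 ranged on the log2 scale from -0.43 to 0.83 over them, positive without WT replicate 2 (0.83) and without Pparg-/-epi replicates 10 (0.15), 11 (0.10) and 12 (0.15). Cldn3 ranged from -1.94 to -1.57 and Cldn23 from -0.92 to -0.68.

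In female mice alone, altered members numbered 1, members with an adjusted p under 0.05 1, altered genes 651, related genes 3, and Cldn23 was -0.89. Without the 4 WT mice of number 226 these were 0, 0, 389 and 2, and Cldn3 was -1.31, Cldn23 -0.25, Cldn12 0.0066 and Tjp1 -0.078. Fewer mice entered both fits. With RIN as a covariate 1 member was altered and Cldn23 was -0.58. For Cldn8, DESeq2 gave 0.0016 and age as a covariate 0.32.

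Alternatives chosen after seeing the data also moved values. Libraries with a RIN of 7 or more (3 WT and 5 Pparg-/-epi) gave 1 altered member, 1 with an adjusted p under 0.05, 502 altered genes, 3 related genes and -0.56 for Cldn23. Leaving out WT replicates 1 and 2 gave 2968 altered genes, 12 related genes and 1.15 for Cldn8, and leaving out WT replicates 2 and 5 gave 0.71 for Cldn8. The share of rises among altered genes was 50.5% and went to 57.9% without WT replicate 2 and 61.2% without WT replicates 1 and 2. The cause was not tested.

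No paired analysis was run. Replicate numbers run on from WT to Pparg-/-epi and pair no mice, and only the name number 222 occurs in both groups. A fit with 2 blocks of mouse name numbers, which pairs no mice, was added after seeing the data. It left Ocln at -0.39 (adjusted p = 0.0614) and took Mpp5 (-0.56) and Cdh3 (0.58) under the size limit. Depth limits genes with few reads, such as Cldn3, Cldn8 and Cldn15 at 33, 22 and 0 reads in their lowest libraries.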
